A study of Mus musculus with 2 samples.

Results

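The 10 genes described here are those of neuropeptides and of the granules that store them, followed in mouse teratomas, tumours in which transplanted pluripotent stem cells have turned into a mixture of tissues. Sst, Npy, Gal and Tac1 encode peptides, Chga, Chgb, Scg2 and Scg5 encode granule proteins, and Pcsk1 and Pcsk2 encode the proteases that cut peptide precursors. The genes were taken by symbol from probe sets that the platform annotation assigns to 1 gene alone: 9 of the 10 had such a probe set, each of them exactly 1, out of 12393 genes on the array with a probe set of their own. Pcsk2 had none and was not measured here. The series holds 2 arrays. The first carried RNA of tumours from C57BL/6 (B6) embryonic stem (ES) cells, and the other RNA of tumours from EiPS cells, given in the labels as an iPS (induced pluripotent stem) line named 1E12 from the same strain; its tumours are called regression teratomas by the submitters. Cells of both kinds had been placed under the skin of male B6 mice, the tumours were taken at week 6, and each array took pooled RNA of 2 tumours, so each group is 1 cell line and 1 pool. Without replicates no difference could be tested, and the values compare a B6 ES pool with an EiPS pool rather than the cell lines in general.

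Neuropeptides are made as long precursors in neurons and endocrine cells. The precursors enter dense-core granules, where the granins (chromogranins and secretogranins) help pack the cargo, prohormone convertases cut it at pairs of basic residues, and carboxypeptidase E and an amidating enzyme finish the peptide ends before the granule fuses with the cell membrane. In teratomas such genes can be read from nervous tissue as well as from scattered endocrine cells of gut-like and pancreas-like epithelium, and a bulk array cannot tell fewer cells of a type from less RNA per cell.

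Most of these genes had somewhat lower signals in the EiPS pool, while Npy was higher by 2.02-fold and Chgb by 1.22-fold. Of the 9 measured genes, 7 were lower in the EiPS pool and 2 were higher. Their median log2 difference (EiPS pool minus B6 ES pool) was -0.55. Over all 10962 measured genes it was 0.07, with 43.8% of genes lower and 56.2% higher. Sst and Pcsk1 were at least 2-fold lower, 2 of 9 against 3.05% of all measured genes, and Npy was at least 2-fold higher, 1 of 9 against 5.79%. A single gene past that line does not set the members apart from the rest of the array on the higher side. Of the genes of the whole array past 2-fold, 65.5% were higher, and 53.0% after quantile normalization or 52.5% with equal medians. A gene counted as measured when its signal reached a floor of 25.8 on 1 array or more, the 90th percentile of signals from smell, vomeronasal and taste receptor probe sets, which stand for genes held to be silent here; 8 members did so on both arrays and Pcsk1 on the B6 ES array only. The members were put forward with results of these arrays in view, so these counts describe the arrays and support nothing beyond them. With no replicates, the nearest gauge of measurement error was the spread of the log2 difference among probe sets that report on 1 gene. Its standard deviation (SD) was 0.50 for genes under 100. It was 0.39 both for genes from 100 to 1000 and for genes over 1000. Each gene was placed in 1 range by its brightest probe set, and its dimmer probe sets counted there too. The SD therefore describes genes of a range rather than single signals in it. It leaves out variation between tumours, arrays and labelling. Against it, 6 of the 9 members differed by more than 1 SD and 3 (Sst, Pcsk1 and Npy) by more than 2 SD. Chgb, Gal and Tac1 stayed under 1 SD. The Pcsk1 value is a bound set by the floor, and such probe sets did not enter the SD. Because Pcsk1 counted as measured only through the B6 ES array, it could only count as lower. With a higher floor of 49.2, Pcsk1 had a log2 difference of -0.19, under 1 SD. The share of all measured genes past these lines was not counted, so the counts do not set the members apart.

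**Figure D1:**
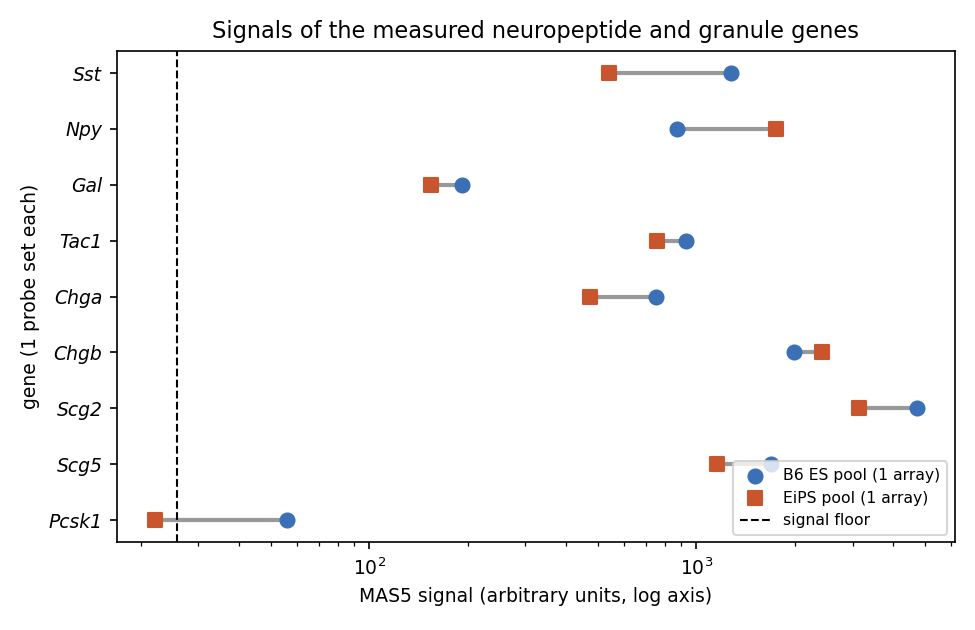
MAS5 signal (log axis, arbitrary units) of the 9 measured genes on the B6 ES array (circles) and the EiPS array (squares), with the signal floor of 25.8 as a dashed line; each point is 1 probe set on 1 array. The EiPS square lies left of the B6 ES circle for 7 genes and right of it for Npy and Chgb, and only Pcsk1 on the EiPS array lies under the floor.

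**Figure D2:**
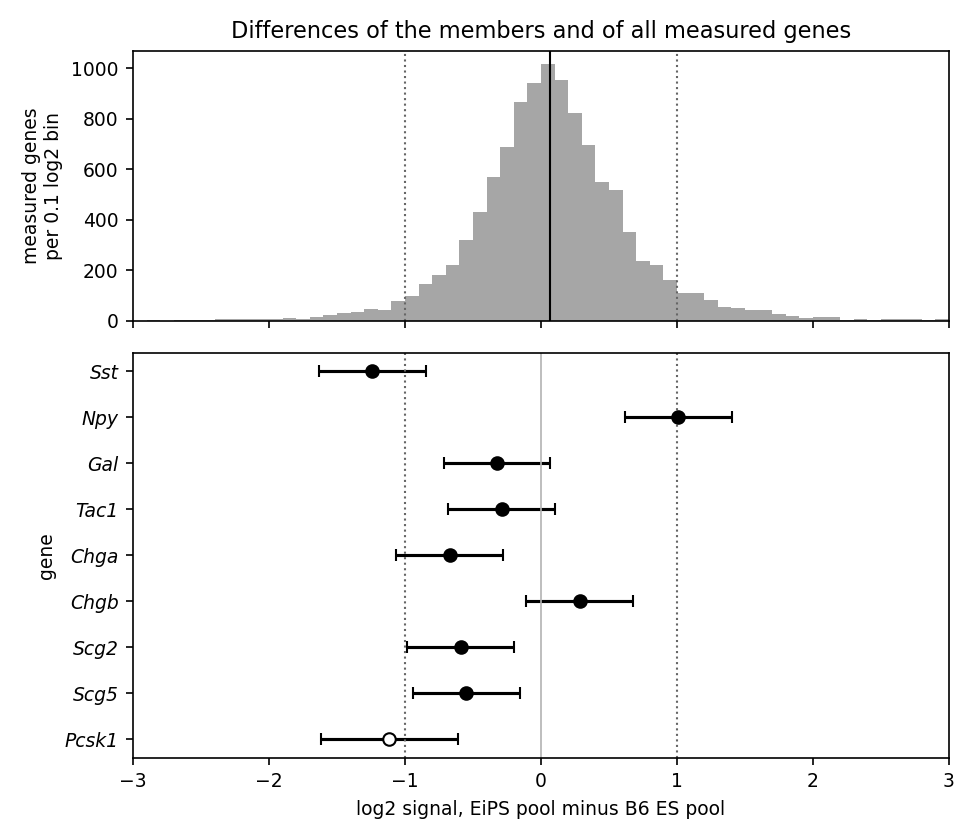
Top, number of measured genes per bin of log2 difference (EiPS pool minus B6 ES pool), with the median of 0.07 as a solid line; 22 genes lie beyond the plotted limits of 3. Bottom, the same difference for each member, with a bar of 1 SD between probe sets of a gene. The SD is that of genes whose brightest probe set lies in the member's signal range. The open symbol is a bound, and dotted lines mark 2-fold. The bars of Gal, Tac1 and Chgb reach across 0, and those of the other 6 do not.

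The promoters of several members carry the cAMP response element (CRE), the site of CREB-family factors that has long been studied in the somatostatin gene. Its 8 letters, TGACGTCA, read the same on both strands. They were found in 4 of the 10 member promoters (windows of 300 bases, from 250 before the start site to 50 after, RefSeq, GRCm38.p6; all 10 genes matched by symbol) and in 1.79% of 32851 such windows of all genes. The full element began at position -48 in Sst, -72 in Chgb, -68 in Scg2 and -78 in Pcsk1, counted from the start site. The 5-letter core of the element, TGACG on either strand (which every full element also contains), was found in 9 of the 10 member windows and in 20.8% of all windows. Npy was the member without it. The 120 bases before the start site are given for the 4 promoters with the full element, for Chga, which has the core alone at position -44, and for Npy, with the matched letters in capitals and each sequence written 5′ to 3′ along its gene. They come from chr16:23890845-23890964 (minus strand) for Sst, chr2:132781522-132781641 (plus) for Chgb, chr1:79440027-79440146 (minus) for Scg2, chr13:75089737-75089856 (plus) for Pcsk1, chr12:102554821-102554940 (plus) for Chga and chr6:49822590-49822709 (plus) for Npy.
Sst: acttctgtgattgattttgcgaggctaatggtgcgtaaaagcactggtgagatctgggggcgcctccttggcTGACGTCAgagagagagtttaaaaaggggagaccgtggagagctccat
Chgb: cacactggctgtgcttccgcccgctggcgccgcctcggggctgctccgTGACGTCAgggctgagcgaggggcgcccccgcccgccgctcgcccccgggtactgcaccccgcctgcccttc
Scg2: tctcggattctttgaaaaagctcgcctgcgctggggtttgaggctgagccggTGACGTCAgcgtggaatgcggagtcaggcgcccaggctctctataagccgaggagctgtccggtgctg
Pcsk1: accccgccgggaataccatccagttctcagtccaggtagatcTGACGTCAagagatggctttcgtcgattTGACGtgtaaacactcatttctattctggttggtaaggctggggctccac
Chga: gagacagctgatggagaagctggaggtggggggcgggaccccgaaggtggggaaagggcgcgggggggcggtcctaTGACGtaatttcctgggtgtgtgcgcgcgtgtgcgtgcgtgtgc
Npy: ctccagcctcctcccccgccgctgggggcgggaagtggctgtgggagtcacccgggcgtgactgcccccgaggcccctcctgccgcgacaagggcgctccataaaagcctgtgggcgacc
Pcsk1 holds a further core at position -50. Genes with the full element differed in direction between the pools: Sst, Scg2 and Pcsk1 were lower in the EiPS pool and Chgb was higher. A match of letters is a description of the window and not a binding site, and the arrays hold no measurement of factor binding.

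**Figure D3:**
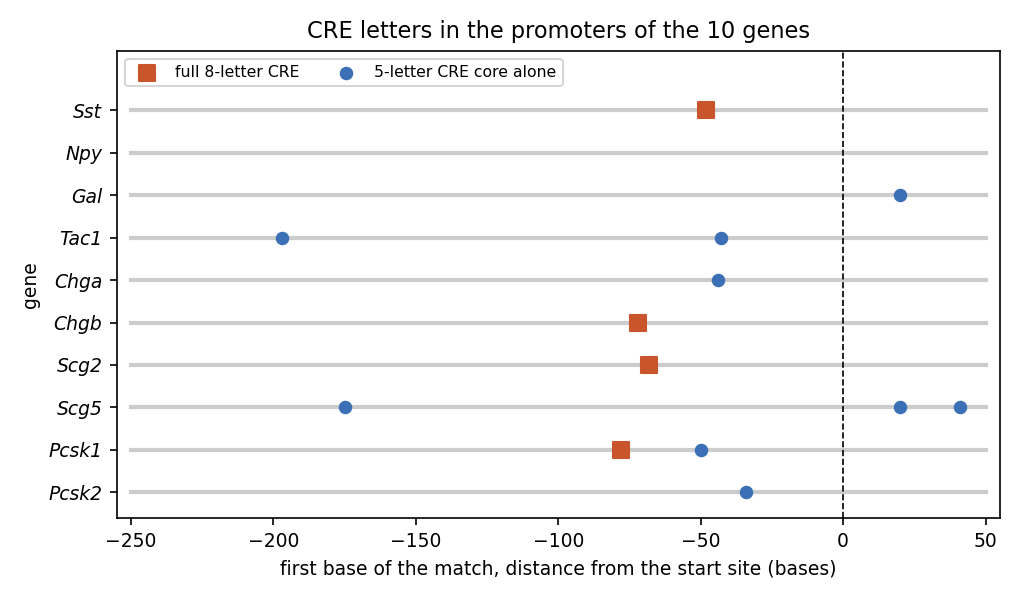
Position of CRE letters along the promoter window of each of the 10 genes, in bases from the start site (dashed line at 0); squares are full 8-letter elements and circles are 5-letter cores outside a full element. The 4 squares (Sst, Chgb, Scg2, Pcsk1) lie between -78 and -48, and the Npy line is empty.

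Among the peptide genes, Sst and Npy differed in opposite directions. Sst encodes somatostatin, an inhibitory peptide of interneurons, hypothalamus and endocrine D cells. Its signal was 1274 in B6 ES and 539 in the EiPS pool, 2.36-fold lower (log2 difference -1.24), and 1.81% of all measured genes had a difference as low or lower. Npy encodes neuropeptide Y, found in interneurons, sympathetic neurons and the appetite circuit of the hypothalamus. Its signal was 871 in B6 ES and 1755 in the EiPS pool, 2.02-fold higher (log2 difference 1.01), and 5.64% of all measured genes had a difference as high or higher. Somatostatin and neuropeptide Y are made together in a class of cortical interneurons, and their signals differed between these pools in opposite directions. Npy sits on the 2-fold line: with the arrays brought to equal medians, which moves the median of all genes from 0.07 to -0.06, its log2 difference was 0.89, and it was 0.96 as log2(signal + 64).

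Gal and Tac1 differed little. Gal encodes galanin, a peptide of hypothalamic and sensory neurons, and had signals of 193 in B6 ES and 154 in the EiPS pool (log2 difference -0.32). Tac1 encodes the precursor of substance P and neurokinin A, transmitters of sensory and striatal neurons, and had signals of 927 in B6 ES and 758 in the EiPS pool (log2 difference -0.29). Both differences were smaller than the SD between probe sets of a gene, and the share of measured genes as low or lower was 19.7% for Gal and 21.6% for Tac1.

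The granule proteins split by gene, with 3 lower and Chgb slightly higher in the EiPS pool. Chga encodes chromogranin A, the general marker of endocrine granules, and had signals of 751 in B6 ES and 472 in the EiPS pool, 1.59-fold lower (log2 difference -0.67). Scg2 encodes secretogranin II, the precursor of secretoneurin, and had signals of 4713 in B6 ES and 3132 in the EiPS pool, 1.50-fold lower (log2 difference -0.59). Scg5 encodes 7B2, the chaperone that keeps the convertase PC2 inactive until it reaches the granule, and had signals of 1695 in B6 ES and 1158 in the EiPS pool, 1.46-fold lower (log2 difference -0.55). These 3 differences lay between 1.39 and 1.71 times the SD between probe sets, and between 7.43% and 10.3% of all measured genes were as low or lower. Chgb encodes chromogranin B, a granin related to chromogranin A, and had signals of 1991 in B6 ES and 2426 in the EiPS pool, 1.22-fold higher (log2 difference 0.29). That difference was smaller than the SD between probe sets, and 32.0% of all measured genes were as high or higher.

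Of the convertases, Pcsk1 alone could be read. It encodes PC1/3, which makes the first cuts in many precursors. Its signals were low, 56.0 in B6 ES and 22.1 in the EiPS pool, the second of them under the floor, so that it was at least 2.17-fold lower (log2 difference at most -1.12). The size of this bound is set by the floor: at a higher floor, the 98th percentile of the same receptor signals (49.2), the log2 difference was -0.19, and with a floor of 100 Pcsk1 was not measured. Sst was then the only member at least 2-fold lower.

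**Figure D4:**
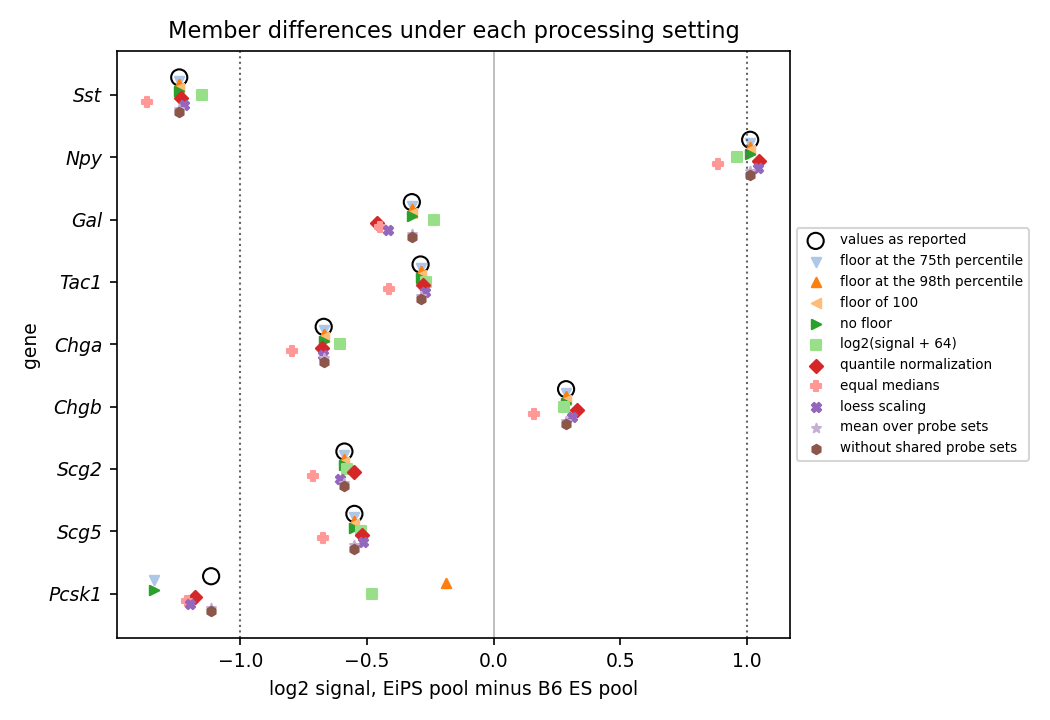
Log2 difference (EiPS pool minus B6 ES pool) of each measured member under the values as reported (open circles) and the 10 other processing settings (coloured symbols, offset for legibility); dotted lines mark 2-fold. Each gene stays on its side of 0 under every setting shown, Npy lies on both sides of the upper 2-fold line, and Pcsk1 ranges from -1.34 to -0.19. For all genes but Pcsk1, the floor and probe set settings could not change the value.

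The wider granule and processing machinery was evenly split. Here and in what follows, paired signals are given with the B6 ES pool first and the EiPS pool second. Of 20 further genes listed for it, 18 were measured, 9 lower and 9 higher (median log2 difference -0.01); by at least 2-fold, 1 was lower and none higher. Ptprn2, a transmembrane protein of the dense-core granule, was 2.37-fold lower from low signals (76.2 in B6 ES and 32.2 in the EiPS pool). This 2-fold difference was lost at the 98th percentile floor (log2 difference -0.63) and with log2(signal + 64) (-0.54). Cadps, which primes dense-core granules for release, had signals of 1341 and 725 (1.85-fold lower), and Qpct, which forms the pyroglutamate end of some peptides, of 222 and 122 (1.82-fold lower). In the opposite direction, Sytl4 (granuphilin, a granule docking protein) was 1.94-fold higher from 31.9 to 62.0, Pcsk6, a convertase that acts outside granules, 1.64-fold higher from 122 to 200 and Ptprn, the paralogue of Ptprn2, 1.47-fold higher from 710 to 1047. Further genes are named here for their role, after their values were seen. Cpe (carboxypeptidase E) had signals of 11626 and 12047, a log2 difference of 0.05, and Pam, the amidating enzyme, of 335 and 258, a log2 difference of -0.38. The granin Scg3 and the PC1/3 inhibitor gene Pcsk1n, also had log2 differences of 0.14 and -0.09.

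Other neuropeptide genes went both ways, some by more than any member. Of 33 listed, 21 were measured, 11 lower and 10 higher, with a median log2 difference of -0.01. Cck, the gene of cholecystokinin, a peptide of cortical neurons and gut I cells, had signals of 500 and 1752 (3.51-fold higher in the EiPS tumours). Npff, a pain-modulating peptide gene, was 2.68-fold higher from a signal of 40.7 to 109, and Cartpt, a hypothalamic peptide gene, 2.59-fold higher from 929 to 2410. With a floor of 100, Npff was at 0.12 on the log2 scale. Cck, Npff and Cartpt shared their direction with Npy. On the lower side, Vip, which encodes a peptide of interneurons and of the gut's own nerves, was 2.73-fold lower (267 and 97.7), and Nts (neurotensin) was 2.12-fold lower (391 and 184), as Sst was. Tac4, a tachykinin gene, had signals of 75.8 and 40.5 (1.87-fold lower). Nmu and Ucn were under the floor on both arrays.

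Receptors for the member peptides had low signals where they could be read at all, and 7 of the 15 with a probe set were under the floor on both arrays. Tacr3, the receptor that prefers neurokinin B, had signals of 135 in B6 ES and 25.4 in EiPS tumours, at least 5.23-fold lower; its other probe set was under the floor on both arrays, and the log2 difference was -0.26 with the pair averaged. Sstr2, a somatostatin receptor, had signals of 178 and 140 (log2 difference -0.35), and Sstr5 of 45.1 and 54.4 (0.27). The neuropeptide Y receptor Npy1r was 1.97-fold higher from 28.5 to 56.1, and Npy5r was 1.80-fold lower from 50.3 to 28.0. A second probe set of Npy1r was at least 0.45 higher on the log2 scale (25.1 and 35.4). That of Npy5r was at least 0.14 lower (28.4 and 25.2). Across the processing alternatives, the values closest to 0 were 0.19 for Npy1r and -0.03 for Npy5r. Npy2r, Galr2 and Tacr2 reached the floor in EiPS tumours alone, with signals there of 32.4, 34.4 and 32.7, and were at least 1.25-fold, 1.33-fold and 1.26-fold higher. The list's median was 0.30 over 8 measured genes, and it changed sign with higher floors.

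Gut and pancreas endocrine genes had mostly higher signals in the EiPS tumours. Of 9 measured, 7 were higher, against 56.2% of all measured genes, and 4 were at least 2-fold higher, against 5.79%. The median log2 difference was 0.94, but 0.48 at the 98th percentile floor and 0.31 with no floor. Pyy, the peptide of intestinal L cells, had signals of 33.2 and 183 (5.51-fold higher). Gip, a hormone of K cells, was at least 2.65-fold higher (12.3 and 68.4) and Ins2 (insulin) at least 2.34-fold higher (5.82 and 60.4). The only Ins2 probe set is of the kind shared between transcripts, so Ins2 was not measured when such sets were omitted. Gip and Ins2 counted as measured only through the EiPS array, so they could only count as higher. At the 98th percentile floor their bounds were 0.48 and 0.30 on the log2 scale, under 2-fold. Pyy was at 0.87 with a floor of 100. On the lower side, Nkx2-2, a transcription factor of endocrine precursors and ventral neural tube, was 1.50-fold lower (218 and 145), and Iapp (amylin) had a log2 difference of -0.01, with 1 of its other probe sets higher by 0.44. Gast, Ppy and Tph1 were under the floor on both arrays.

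Transcription factors of neuroendocrine cells showed no common direction, with 3 lower and 5 higher of 8 measured and a median log2 difference of 0.08, which changed sign with the scaling of the arrays. Insm1, a zinc-finger factor of newly formed neurons and endocrine cells, had signals of 29.8 and 99.4 (3.33-fold higher; log2 difference 1.74, and 0.80 as log2(signal + 64)). Gata3, a factor of sympathetic neurons and many epithelia, was 1.59-fold higher (40.8 and 64.9) and Neurog3, which starts the endocrine programme of gut and pancreas, 1.50-fold higher (29.7 and 44.4). Besides Nkx2-2, Pax6 had a log2 difference of -0.39, and Isl1, a factor of motor neurons and islet cells, of -0.04. Of the other Pax6 probe sets, 1 was at -0.67 (55.7 and 35.1) and 1 was at least 0.47 higher (19.8 and 35.7). The rest were under the floor on both arrays. Rest, the repressor of neuronal genes, had signals of 369 and 407 (log2 difference 0.14; named after its value was seen).

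**Figure D5:**
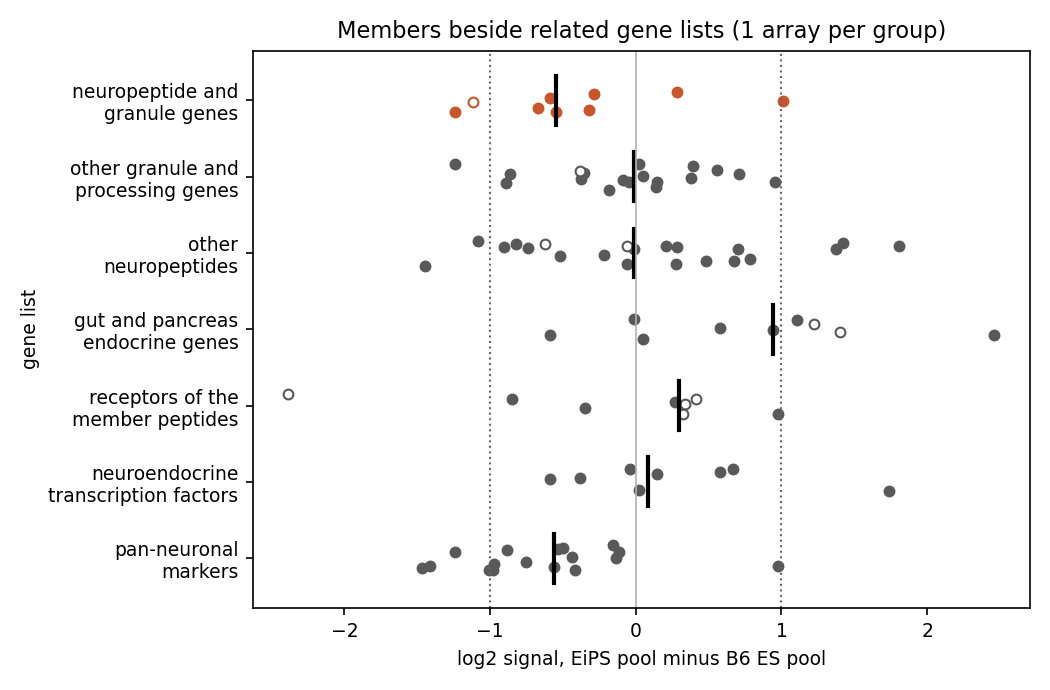
Log2 difference (EiPS pool minus B6 ES pool) of every measured gene in the member list and 6 related lists; each point is 1 gene on 1 array per group, open points are bounds because 1 array was under the floor, black bars are list medians and dotted lines mark 2-fold. The medians of the members (-0.55) and of the pan-neuronal markers (-0.56) lie left of 0, that of gut and pancreas endocrine genes (0.94) lies to the right, and those of the other granule genes and other neuropeptides lie at -0.01.

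Markers of nerve cells were also lower in the EiPS pool. Of 17 pan-neuronal markers, all were above the floor on both arrays, 16 were lower in the EiPS pool and 4 reached 2-fold; the median log2 difference was -0.56. Their summed signal was 41068 in B6 ES and 24650 in the EiPS pool, and that of the 9 members 12470 and 10416. Such sums, here and below, follow their brightest probe sets, among the members Scg2 (4713 and 3132). Since probe sets differ in affinity, the sums were not compared between lists. The pan-neuronal counts use the brightest probe set of each gene. Map2, among the 4 at 2-fold, had another probe set at least 0.67 higher on the log2 scale. Elavl3 and Elavl4 each had another at 0.12, and Ina had another at 0.0007. The neurofilament gene Nefl was 2.77-fold lower, Stmn2 2.66-fold and Gap43, a growth cone protein gene, 2.36-fold lower, while Dcx, the doublecortin gene of young neurons, was 1.97-fold higher (504 and 991), with all 4 of its probe sets higher. Of 7 catecholamine cell markers, 3 were lower and 4 higher (median 0.03, below 0 under each other scaling of the arrays; summed signal 1653 and 1164): Th, the first enzyme of dopamine synthesis, was 3.56-fold lower, the dopamine transporter gene Slc6a3 at least 2.57-fold lower and Ddc 1.56-fold lower, against Pnmt at 1.75-fold, Phox2a at 1.36-fold and Dbh at 1.15-fold higher, of which Pnmt was lower with its probe sets averaged and Dbh after quantile normalization. On the lower side, Th was at -0.43 on the log2 scale with a floor of 100, and Slc6a3 at -0.43 at the 98th percentile floor. Of 6 intestinal epithelium markers measured, 5 were higher (median 1.09), with Tff3, Krt20 and Lgals4 at 6.95-fold, 5.13-fold and 2.27-fold higher and Fabp2 2.73-fold lower. Cdx1 was under the floor on both arrays, but is included in the list's summed signal of 2232 and 5142. Of 9 glial markers measured, 5 were lower and 4 higher (median -0.21; summed signal 20719 and 21268). Olig2, Olig1 and Sox10 were 2.89-fold, 2.62-fold and 2.36-fold lower, while Mobp was 7.58-fold higher with its 3 probe sets between 0.43 and 2.92 on the log2 scale, Gfap 1.91-fold and Mog 1.08-fold higher, the last lower under each other scaling. The other probe sets of Sox10 had smaller differences, -0.54 and a bound of -0.81, and that of Gfap was at 0.50. The part of these cell types in the members' differences was not tested.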

How the data were processed

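Gene expression was measured with Affymetrix mouse arrays, 1 array per group, each carrying biotin-labelled cRNA made from 5 µg of total RNA per the labels' protocols. The authors deposited linear intensity values per probe set, computed with Affymetrix Expression Console and MAS5 per the submitters' processing notes; the software version is not given in the sources used here. Both arrays had a 2% trimmed mean of 500.2, so they had been scaled alike before deposit, and any overall gain or loss of RNA in the cells is hidden.

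Of 22690 probe sets, 20380 had 1 gene symbol in the platform annotation, 691 several and 1555 none, and 64 were controls. Symbols were updated by Entrez identifier with a RefSeq table (GRCm38.p6, names only; 20351 matched, 29 kept the annotation's symbol). Where a gene had several probe sets, the brightest by mean log2 signal was used. The floor on low signals, 25.8, was the 90th percentile of both arrays' signals over 71 probe sets for smell, vomeronasal and taste receptors. A signal under it was set to it, which makes a difference a bound ("at least"); genes under it on both arrays (1431) were not compared. Level order between different genes was not read, since probe sets differ in affinity. With 1 array per group, the number of arrays limits the precision, and no p-value is given.

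The members and gene lists were chosen with earlier results of these data known. All members were named, all measured receptors of the member peptides, and in each other list up to 3 genes with the largest difference in each direction; genes outside this rule are marked in the text. Alternatives were a 75th percentile floor, a 98th percentile floor, a floor of 100, log2(signal + 64), no floor, equal medians, loess scaling (span 0.4), quantile normalization, averaged probe sets, and omission of probe sets shared between transcripts. The procedure was tested on simulated data. Python 3.11.15, pandas 2.3.3, scipy 1.17.1 and statsmodels 0.14.6 were used.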

Additional observations from a re-analysis of the deposited data

How the results depend on the processing

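Each of the 9 member differences kept its direction under each of the 10 alternatives that measured the gene, and their median ranged from -0.68 to -0.32. Much of this was fixed in advance. Each member has 1 probe set, not shared between transcripts, so averaging or omitting probe sets could not move it. The floor settings could move Pcsk1 alone. Values of the other members could change only with log2(signal + 64) and the scalings of the arrays. The number of members at least 2-fold lower was 1 rather than 2 with the floor at the 98th percentile, with a floor of 100 and with log2(signal + 64), because Pcsk1 then had a log2 difference of -0.19, was not measured, or had -0.48. Genes at 2-fold or more on the higher side were 0 among the members with equal medians and with log2(signal + 64). Equal medians also turned the median of all genes to -0.057. Genes of the whole array at least 2-fold lower numbered 334, but 720 with no floor and 187 with log2(signal + 64), and those at least 2-fold higher 635, but 305 with a floor of 100, 1249 with no floor and 246 with log2(signal + 64). The higher share of these was 65.5% and became 53.0% after quantile normalization and 52.5% with equal medians.

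Small list medians changed sign. A floor at the 98th percentile gave medians of 0.036 for other granule genes, 0.040 for other neuropeptides, -0.033 for receptors and -0.12 for catecholamine markers. With a floor of 100 these were 0.022, 0.11, -0.39 and -0.43, and the transcription factor median was -0.042. The transcription factor median was also -0.035 after quantile normalization, -0.083 with equal medians and -0.028 after loess scaling, and the catecholamine median -0.27, -0.091 and -0.19. Averaging probe sets gave 0.20 for other neuropeptides, -0.13 for catecholamine markers and 0.037 for glial markers. The gut and pancreas median was 0.48 at the 98th percentile floor and 0.31 with no floor, and the interneuron median -0.77 without shared probe sets. Of single genes, Dbh became -0.070 after quantile normalization, Mog -0.12, -0.018 and -0.048 after quantile normalization, equal medians and loess scaling, and with probe sets averaged Iapp became 0.088 and Pnmt -0.13. Of 30 related genes named in the text that differed by 2-fold or more, 15 did so under each alternative that measured them and 15 fell short under at least 1. The value closest to 0 was -0.43 for both Th and Slc6a3, 0.12 for Npff, 0.87 for Pyy, 0.48 for Gip, 0.30 for Ins2, 0.80 for Insm1, -0.54 for Ptprn2, -0.26 for Tacr3, -0.87 for Nts, -0.90 for Sox10, -0.78 for Slc32a1, and 0.89, 0.71 and 0.86 for Dlx1, Dlx2 and Dlx5. For changes that do not follow from which genes a floor leaves, the cause was not tested. No paired analysis was possible because each group holds 1 array. Low signals set the limit for Pcsk1, most receptors and several gut hormones.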

Other observations

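Genes of inhibitory interneurons, a cell class that includes many makers of Sst, Npy, Vip and Cck, were divided between the pools. Of 11 markers listed and measured, 6 were lower and 5 higher in EiPS tumours; the median log2 difference was -0.29 and the summed signal 7067 in B6 ES and 4733 in the EiPS pool. The calcium-binding protein genes Calb2 (calretinin) and Calb1 (calbindin) were 4.63-fold lower (774 and 167) and 2.41-fold lower (542 and 225). Slc32a1, the transporter that loads GABA into vesicles, was 3.25-fold lower (884 and 272), but its other probe set was under the floor on both arrays and the log2 difference was -0.78 with the pair averaged. By contrast, the Dlx genes, homeobox factors of the embryonic ganglionic eminence where forebrain interneurons arise, were all higher: Dlx2 was 3.16-fold (51.9 and 164), Dlx5 2.51-fold (75.4 and 189) and Dlx1 2.13-fold higher (196 and 419). All 3 fell short of 2-fold with log2(signal + 64), at 0.98, 0.86 and 0.89 on the log2 scale. With a floor of 100, Dlx2 was at 0.71 and Dlx5 at 0.92. These values rest on 1 array per group and were not tested.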
